A study of Mus musculus with 20 samples.

Results

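Lymphatic vessel genes were followed across 5 regions of the mouse heart. Their members were every array probe that the platform annotation assigns to Prox1, Flt4, Lyve1, Pdpn, Ccl21a, Mmrn1 or Reln. This gave 8 probes for 6 of the 7 genes, out of 23978 probes with 1 gene name and 25697 probes in the table, and the annotation used here assigns no probe to Mmrn1. Prox1 and Flt4 each had 2 probes, and the other 4 genes had 1 each.

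All samples were C57/BL6 males of 5 to 10 weeks with no treatment or genetic change. The regions were the sinoatrial node region (SA, the pacemaker tissue), left atrium (LA, taken beside the pulmonary vein), right atrium (RA), left ventricle (LV) and right ventricle (RV, its free wall), with 4 arrays each. An SA sample held tissue of several mice and each LV was cut into 3 pieces. Nothing in the labels says which arrays come from separate animals, so a p-value here reflects only how far these samples spread, which may be technical. Fat and soft tissue were trimmed under a stereomicroscope, and the dissected pieces are mixed tissue, in which fewer cells of a type and less RNA per cell cannot be told apart.

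RNA was measured on Illumina MouseRef-8 beadchips. The deposited values are z-scores, that is, each array's signals with that array's mean set to 0 and its standard deviation (SD) to 1. Differences in z-score are therefore not fold changes, and levels of different probes are not comparable. The study's methods name a log2 step (intensity plus 1) and an alignment of array medians for its own use of these arrays, and do not mention z-scores, so the scale from which the deposited scores were made is unknown. Their medians differ slightly, from -0.50 to -0.46 without LV replicate 4 and -0.40 in it. LV replicate 4 stood apart, with a rank correlation with the other 19 arrays between -0.06 and 0.011, against a lowest value of 0.847 among those 19. It was left out of the LV means and of the tests below, and its own z-scores, or the calls and counts with all 20 arrays, are given with the results it changes. LV replicate 3 was the next most distant array, with a highest rank correlation of 0.884. RV replicate 2 is titled as an RA array, while its source, tissue and description give RV. It read 0.53 for the ventricular factor Irx4, against -0.81 to -0.75 in the RA arrays. For the right atrial Bmp10 it read -0.51, against 1.64 to 1.94 in the RA arrays. By region means the markers followed the labels: Isl1, a sinoatrial node factor, had a mean of 1.10 in SA and at most -0.45 elsewhere, Myl7, the atrial myosin light chain, averaged 4.11 to 4.20 in SA, LA and RA and 0.51 to 0.72 in LV and RV, and Bmp10, a right atrial growth factor, averaged 1.79 in RA and at most -0.61 elsewhere. Single ventricular arrays spread widely for Myl7, with 1.91, 0.03 and -0.40 in LV and -0.01, 1.76, 1.34 and -0.19 in RV, and all of them read below the lowest atrial or SA array (3.67). Shox2, another node factor, read 1.22 to 1.42 in SA, 0.51 to 0.55 in RA and -0.55 to -0.26 in LA, LV and RV. Myl2, the ventricular myosin light chain, read 4.34 to 5.15 in LV and RV. In single atrial arrays it spread widely, from 0.06 to 2.03 in LA and 0.66 to 2.20 in RA, with 0.54 to 0.74 in SA.

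Lymphatic vessels drain fluid, proteins and immune cells from tissue and return them to the blood. Prox1 is the transcription factor that gives endothelial cells their lymphatic identity. Flt4 (VEGFR-3) is their receptor for the growth factors Vegfc and Vegfd, and Lyve1 (a hyaluronan receptor) and Pdpn (podoplanin, a sialomucin that binds Clec1b on platelets) are surface markers. Ccl21a is the chemokine that draws Ccr7-bearing dendritic cells and T cells into lymphatic vessels, Reln is a secreted glycoprotein best known for placing neurons in the brain, and Mmrn1 (multimerin 1) is a protein of platelets and endothelium. None of these genes is restricted to lymphatic endothelium: Prox1 is also made by heart muscle cells, Lyve1 by some tissue macrophages, and Pdpn by mesothelium, alveolar epithelium and lymph node stroma.

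Mouse chromosome 4 carries several copies of the Ccl21 gene, so the sequences before the starts of Ccl21a and a near-identical copy are shown first. Each is the 250 bases that precede the annotated start, from RefSeq on build GRCm38.p6, and the capital marks the base at which Ccl21a and its copy Ccl21d differ.
Ccl21a (chr4:42773992-42774241, minus strand): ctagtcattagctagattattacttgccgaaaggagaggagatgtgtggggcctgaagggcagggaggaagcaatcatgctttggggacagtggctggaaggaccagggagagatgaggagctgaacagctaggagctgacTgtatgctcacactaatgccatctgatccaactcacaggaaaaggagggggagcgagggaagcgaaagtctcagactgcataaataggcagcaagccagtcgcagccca
Ccl21d (chr4:41903363-41903612, plus strand): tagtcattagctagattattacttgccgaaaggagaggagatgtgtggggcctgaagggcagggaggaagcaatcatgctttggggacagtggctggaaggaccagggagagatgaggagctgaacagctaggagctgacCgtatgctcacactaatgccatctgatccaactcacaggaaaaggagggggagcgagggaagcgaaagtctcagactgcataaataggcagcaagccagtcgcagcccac
Over the 249 bases that align, 248 were identical (99.6%), and the difference was T142C, counted from 1 at the 5′ end of the Ccl21a sequence. The copies Gm13304 and Gm10591 had 247 of 249 bases in common with Ccl21a (99.2%). Ccl21b was unlike them in this window, with 81 of 247 bases in common with Ccl21a (32.8%) in the same alignment without gaps. These bases lie before the start and say nothing about where a probe binds. Probe sequences were not used here, so whether the probes annotated to Ccl21a, Ccl21b and Ccl21c share signal, and which copy was transcribed, is uncertain.

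Pdpn is shown because it had a clear atrial level, with letters of a pair of factor motifs in capitals.
Pdpn (chr4:143299565-143299814, minus strand): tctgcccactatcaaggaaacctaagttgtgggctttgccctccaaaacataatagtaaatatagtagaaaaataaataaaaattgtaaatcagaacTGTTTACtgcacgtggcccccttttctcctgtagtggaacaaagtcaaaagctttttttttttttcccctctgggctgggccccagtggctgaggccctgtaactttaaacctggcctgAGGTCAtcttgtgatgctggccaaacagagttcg
The capitals are TGTTTAC (a FOX motif), found in 3.17% of 32851 promoters of this length on either strand, and AGGTCA (the half-site of the NR2F family), found in 14.0%. Searches on both strands for the SOX letters AACAAT, the ETS letters CAGGAA, the letters AGATAA read by GATA factors and the letters TATAAA of a core promoter gave no match in this window, and CAGGAA, found in 25.7% of all promoters, was present in both Ccl21 sequences above. These matches describe letters only.

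Of the 8 member probes, 6 differed among the 5 regions (moderated F test in limma, adjusted p under 0.05 over all probes), a call that 36.8% of all probes received. These were Reln (adjusted p = 8.98e-09), Ccl21a (3.53e-07), Pdpn (4.35e-06), Lyve1 (0.000939) and both Prox1 probes (0.000895 and 0.000452), while the Flt4 probes had adjusted p = 0.0791 and 0.162. The genes did not share a common pattern. Ccl21a and Reln were lowest in RA, Lyve1 and Pdpn were lowest in the ventricles, and Reln stood highest in SA. With all 20 arrays in the limma fit, the F test kept Reln (adjusted p = 0.000964), Pdpn (0.00113), Lyve1 (0.00412) and Ccl21a (0.0288), with 7.63% of all probes called, and the Prox1 probes had adjusted p = 0.233 and 0.0502.

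**Figure D1:**
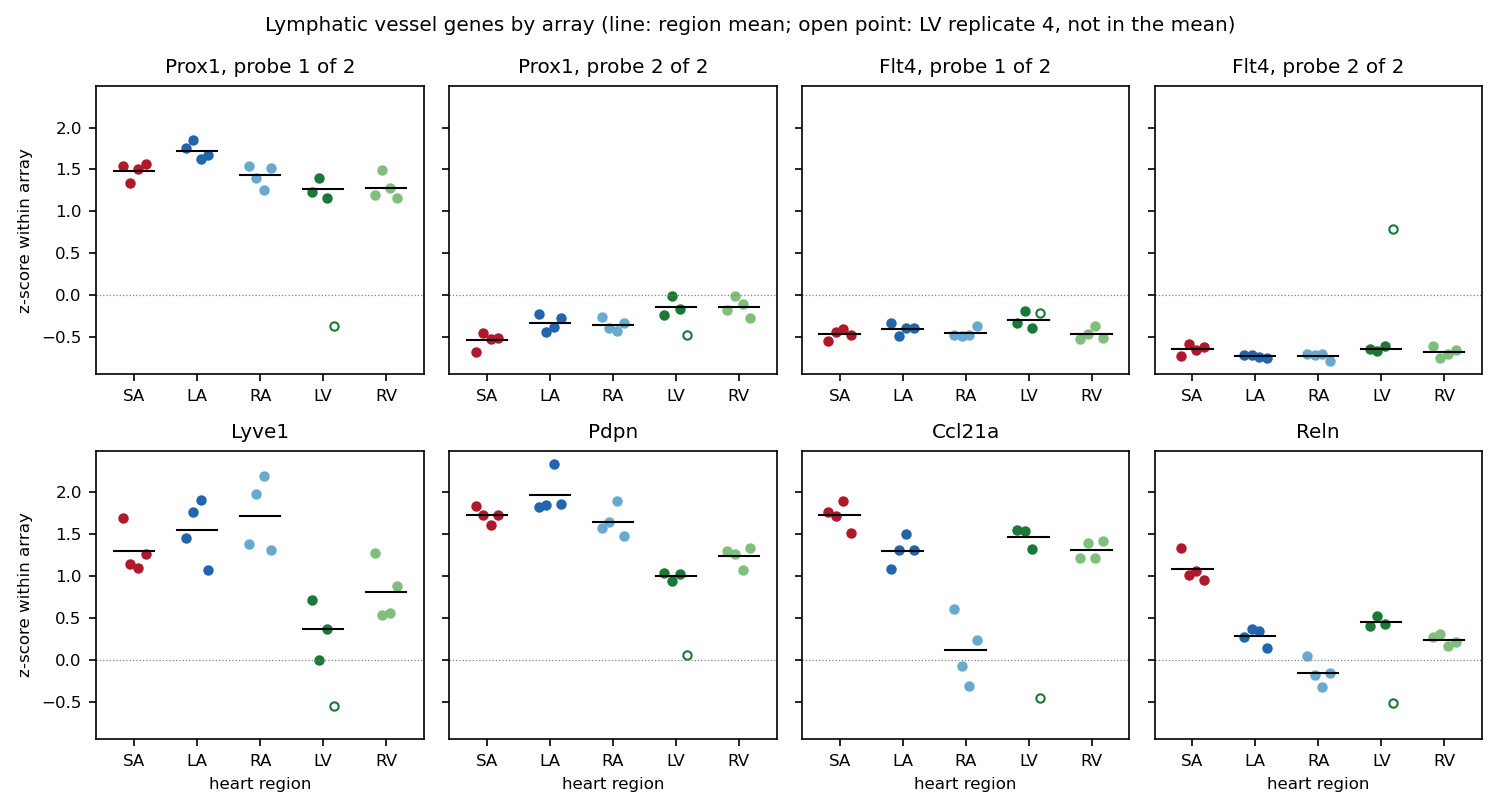
z-scores within array (vertical axis) of the 8 member probes in SA, LA, RA, LV and RV (horizontal axis). Each point is 1 array, the line is the region mean, and the open point is LV replicate 4, which is not in the mean; Ccl21a and Reln dip in RA, and Lyve1 and Pdpn are lower in LV and RV than in the other regions.

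Ccl21a, the dendritic cell attractant, had z-scores of 1.77, 1.72, 1.90 and 1.52 in SA, against 0.61, -0.07, -0.31 and 0.24 in RA. No SA array came near an RA array, and SA and RA arrays did not overlap in 12.9% of all probes. In LA it read 1.09, 1.31, 1.50 and 1.31, in LV 1.55, 1.54 and 1.32, and in RV 1.22, 1.40, 1.22 and 1.42, so RA was the low region, and its arrays lay below every array of the other 4 regions except LV replicate 4 (-0.46). The mean was 1.73 ± 0.16 in SA and 0.12 ± 0.40 in RA (SD, n = 4 each), a difference of 1.61 ± 0.14 (standard error, SE; limma adjusted p = 3.03e-07). LA exceeded RA by 1.19 ± 0.14 (limma adjusted p = 5.65e-05). RA was also below LV by 1.35 ± 0.15 and below RV by 1.20 ± 0.14, comparisons in which 28.7% and 23.6% of all probes were called. On 20 arrays neither passed the threshold (RA minus LV -0.87, limma adjusted p = 0.0981; RA minus RV -1.20, 0.0511).

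The order of the other 4 regions for Ccl21a was SA, LV, RV, LA by their means of 1.73, 1.47, 1.32 and 1.30. No difference between neighbours in this order passed the threshold: SA minus LV was 0.26 ± 0.15 (limma adjusted p = 0.207), LV minus RV 0.16 ± 0.15 (0.664), and LA minus RV -0.01 ± 0.14 (0.965). SA minus RV, further apart in the order, was 0.41 ± 0.14 and passed (limma adjusted p = 0.0401, and 0.952 on 20 arrays). That comparison called 24.3% of all probes on 19 arrays. SA minus LA was 0.43 ± 0.14 (limma adjusted p = 0.0662), without overlap of arrays, as in 12.5% of all probes. SA minus the mean of both ventricles (V) was 0.34 ± 0.13 (limma adjusted p = 0.051). Both of these passed the threshold without RA replicate 1 (0.0167 and 0.0137), without RA replicate 3 (0.0269 and 0.0222) or without SA replicate 4 (0.0478 and 0.0356), and the second also without LA replicate 1 (0.0486). With LV replicate 4 in the limma fit, SA minus RA remained past the threshold (adjusted p = 0.0128) while LA minus RA had adjusted p = 0.353. Both differences kept their size, and their SE rose to 0.33, since the fit shares its spread over all regions.

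The left-right difference of Ccl21a was larger in the atria than in the ventricles. LA minus RA less LV minus RV came to 1.03 ± 0.21 (limma adjusted p = 0.00991), the only member call in a comparison that called 2.29% of all probes. With all 20 arrays its adjusted p was 0.429, with 0.2% of probes called.

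Probes annotated to Ccl21b and Ccl21c, copies of the same chemokine, followed Ccl21a across the arrays. Ccl21b read 1.39, 1.36, 1.41 and 1.14 in SA, against 0.32, -0.17, -0.45 and -0.05 in RA, a difference of 1.41 ± 0.12 (limma adjusted p = 2.18e-07). For Ccl21c the SA values were 1.33, 1.16, 1.33 and 1.09, against 0.24, -0.38, -0.51 and -0.03 in RA, a difference of 1.40 ± 0.13 (6.99e-07). In every one of these probes RA replicate 1 was the highest RA array and RA replicate 3 the lowest. Over the 19 arrays, Pearson's r with Ccl21a was 0.992 for each copy, which share these arrays and possibly signal. The next most similar gene was Gm5512, with r = 0.864.

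**Figure D2:**
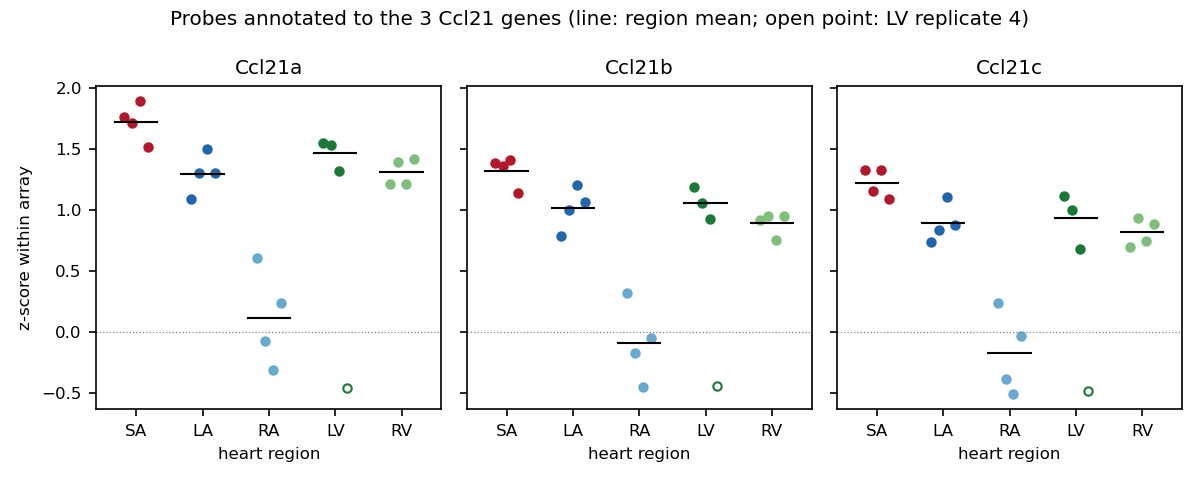
z-scores within array (vertical axis) of the probes annotated to Ccl21a, Ccl21b and Ccl21c in SA, LA, RA, LV and RV (horizontal axis); points are arrays, lines are region means and the open point is LV replicate 4. In all 3 panels the RA arrays lie below the arrays of the other regions, LV replicate 4 aside.

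Reln, the secreted glycoprotein, was highest in SA. Its z-scores were 1.33, 1.01, 1.06 and 0.95 in SA, 0.27, 0.37, 0.34 and 0.14 in LA, and 0.05, -0.18, -0.33 and -0.16 in RA. LV gave 0.41, 0.52 and 0.43, and RV gave 0.27, 0.31, 0.17 and 0.21. The SA arrays lay above all arrays of every other region. Arrays did not overlap in 12.9% of all probes for SA against RA, 12.5% for SA against LA and 18.1% for SA against V. SA exceeded RA by 1.24 ± 0.08 (limma adjusted p = 4.15e-09), LA by 0.81 ± 0.08 (1.26e-06) and V by 0.74 ± 0.07 (1.65e-07), and all 3 stayed past the threshold with LV replicate 4, which read -0.52 (0.000346, 0.0182 and 0.000933).

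Below SA, the mean Reln z-score was 0.45 in LV, 0.28 in LA, 0.24 in RV and -0.16 in RA. No difference among LV, LA and RV passed the threshold. LA minus LV was -0.17 ± 0.09 (limma adjusted p = 0.133), in a comparison that called 28.5% of all probes. LA minus RV was 0.04 ± 0.08 (0.778), in one that called 19.7%. LV minus RV was 0.21 ± 0.09 (limma adjusted p = 0.253, unadjusted 0.0226). Arrays of LV and RV did not overlap, as in 12.1% of all probes. LA exceeded RA by 0.44 ± 0.08 (limma adjusted p = 0.00404). With LV replicate 4 in the fit this difference kept its size but missed the threshold. Its SE rose to 0.17, since the fit shares its spread over all regions. The genes whose z-scores followed Reln most closely over the 19 arrays were Fez1 (r = 0.929), Dtx1 (0.922, with all z-scores below 0) and Adig (0.914). Ccl21a had r = 0.821 with Reln.

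Lyve1, the hyaluronan receptor, was higher in the atria than in the ventricles. In LA it read 1.45, 1.77, 1.91 and 1.07, in RA 1.38, 1.98, 2.20 and 1.31, in LV 0.72, 0.00 and 0.37, and in RV 1.28, 0.53, 0.56 and 0.88. The SD within these regions was 0.35 to 0.44, a spread that no other member reached except Ccl21a in RA, and RV replicate 1 reached the atrial range. The mean of LA and RA (A) exceeded V by 1.05 ± 0.17 (limma adjusted p = 6.27e-05, and 0.000593 on 20 arrays).

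SA had Lyve1 z-scores of 1.70, 1.14, 1.10 and 1.26, above V by 0.71 ± 0.20 (limma adjusted p = 0.0116, 0.049 on 20 arrays, and 0.0605 without SA replicate 1). By region means the order was RA 1.72, LA 1.55, SA 1.30, RV 0.81 and LV 0.36, and no difference between neighbours passed the threshold. LA minus RA was -0.17 ± 0.23 (limma adjusted p = 0.933), SA minus LA -0.25 ± 0.23 (0.609), SA minus RV 0.49 ± 0.23 (0.137, in a comparison that called 24.3% of all probes) and LV minus RV -0.45 ± 0.25 (0.398). Man2a1 (r = 0.923), Pnp (0.921) and Sulf1 (0.915) had the most similar z-scores over the 19 arrays.

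Pdpn, the platelet-binding sialomucin, also had an atrial pattern, with a smaller spread. Its z-scores were 1.84, 1.73, 1.61 and 1.73 in SA, 1.83, 1.85, 2.34 and 1.86 in LA, and 1.57, 1.65, 1.90 and 1.48 in RA. LV gave 1.04, 0.94 and 1.03, and RV gave 1.30, 1.26, 1.07 and 1.33. Every SA, LA and RA array lay above every LV and RV array. Arrays did not overlap in 12.1% of all probes for A against V and 18.1% for SA against V. A exceeded V by 0.69 ± 0.07 (limma adjusted p = 6.08e-07, and 0.000296 on 20 arrays) and SA exceeded V by 0.61 ± 0.09 (3.97e-05, and 0.00666 on 20 arrays).

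Among SA, LA and RA, no Pdpn difference passed the threshold, with SA minus LA at -0.24 ± 0.10 (limma adjusted p = 0.158), SA minus RA at 0.08 ± 0.10 (0.791) and LA minus RA at 0.32 ± 0.10 (0.154). The unadjusted limma p-values were 0.0281, 0.456 and 0.00552. LV minus RV was -0.24 ± 0.11 (limma adjusted p = 0.322). All LV arrays read below all RV arrays, and LV and RV arrays did not overlap in 12.1% of all probes. The nearest genes by z-score over the 19 arrays were Pkhd1l1 (r = 0.947), Upk1b (0.946), an uroplakin that was also on the list of mesothelium markers used here, and Tmem119 (0.937). Lyve1 had r = 0.836 with Pdpn.

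Prox1, the lymphatic identity factor, gave different answers at its probes. The first (ILMN_2598766) read 1.54, 1.34, 1.50 and 1.56 in SA, 1.75, 1.85, 1.63 and 1.67 in LA, and 1.54, 1.40, 1.25 and 1.52 in RA. In LV it read 1.23, 1.40 and 1.16, and in RV 1.19, 1.49, 1.28 and 1.16. LA was the highest region and its arrays lay above all others. Arrays did not overlap in 5.91% of all probes for LA against RA and 12.5% for SA against LA. A exceeded V by 0.30 ± 0.06 (limma adjusted p = 0.000412), with LA above LV by 0.46 ± 0.09 (0.000527) and above RV by 0.45 ± 0.08 (0.000388; 0.0502 and 0.844 on 20 arrays), while RA minus LV was 0.16 ± 0.09 (0.154) and RA minus RV 0.15 ± 0.08 (0.21).

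The second Prox1 probe (ILMN_2894355) was below 0 in all arrays, with means of -0.54 in SA, -0.33 in LA, -0.35 in RA, -0.14 in LV and -0.15 in RV, against array medians of -0.50 to -0.46. Here the ventricles were higher: A minus V was -0.20 ± 0.05 (limma adjusted p = 0.00355) and SA minus V -0.40 ± 0.06 (3.54e-05), against 0.21 ± 0.07 (0.0281) for SA minus V at the first probe. The direction of Prox1 between atria or SA and the ventricles thus depended on the probe. With LV replicate 4, which read -0.37 at the first probe and -0.48 at the second, SA minus V at the second probe was the only one of these 4 past the threshold (0.00664). The call at the first probe in SA minus V was also lost when LV replicate 3, RV replicate 1, RV replicate 4 or any of SA replicates 1, 3 and 4 was left out (limma adjusted p between 0.0504 and 0.0861). Pou4f1 (r = 0.864), Abi3bp (0.847) and Tnni2 (0.838) were the nearest genes to the first probe. LA minus RA at this probe was 0.30 ± 0.08 (limma adjusted p = 0.0662, and 0.0355 without RV replicate 2), and SA minus LA was -0.24 ± 0.08 (0.0645, 0.0384 without RV replicate 2 and 0.046 without RA replicate 3).

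Flt4, the receptor for Vegfc and Vegfd, was listed below 0 in all 19 arrays at both probes. The first (ILMN_2611439) had means of -0.47 in SA, -0.41 in LA, -0.46 in RA, -0.30 in LV and -0.47 in RV, and the second (ILMN_2662229) ran from -0.79 to -0.59 over the 19 arrays. At the first probe LV lay above SA by 0.17 ± 0.05 (SA minus LV, -0.17; limma adjusted p = 0.0251, in a comparison that called 28.3% of all probes). RA minus LV was -0.15 ± 0.05 (0.0392). On 20 arrays the first of these kept its call (0.0492) and the second lost it (0.0634). None of the 6 comparisons listed below called Flt4, although A minus V at the second probe, -0.07 ± 0.03 (0.0534), passed without RV replicate 2 (0.0281) or SA replicate 1 (0.0398).

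By comparison, SA against RA called 2 of the 8 member probes, Ccl21a and Reln, both higher in SA, where 9.35% of all probes were called. SA against LA called Reln (higher) and the second Prox1 probe, at -0.21 ± 0.07 (limma adjusted p = 0.0488; 0.0501 to 0.155 without LA replicate 1, 3 or 4, SA replicate 1, 3 or 4, RV replicate 1 or 3 or any RA array), with 10.2% of all probes called. SA against V called 5 (Reln, Pdpn, Lyve1 and the first Prox1 probe higher, the second lower), with 30.8% of all probes called, and A against V called 6 (Lyve1, Pdpn and the first Prox1 probe higher; Ccl21a, Reln and the second Prox1 probe lower), with 39.5% called. In A minus V, Ccl21a was -0.68 ± 0.10 and Reln -0.28 ± 0.06. This averages an RA below the ventricles with an LA whose differences from LV and RV did not pass the threshold in either gene. LA against RA called 2 (Ccl21a and Reln, higher in LA), with 1.92% of all probes called, and LV against RV called 0 (smallest limma adjusted p = 0.153, for the first Flt4 probe; 3 of the 8 had an unadjusted p under 0.05), with 1.32% called.

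With LV replicate 4 included, the limma fit called 2 member probes in SA against RA (1.46% of all probes), 1 in SA against LA (Reln, 1.44%), 4 in SA against V (6.06%), 2 in A against V (Lyve1 and Pdpn, 9.64%), and 0 in both LA against RA (0.313%) and LV against RV (0.00834%). The comparisons share arrays, SA and the ventricles in several of them, and are not independent of each other.

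**Figure D3:**
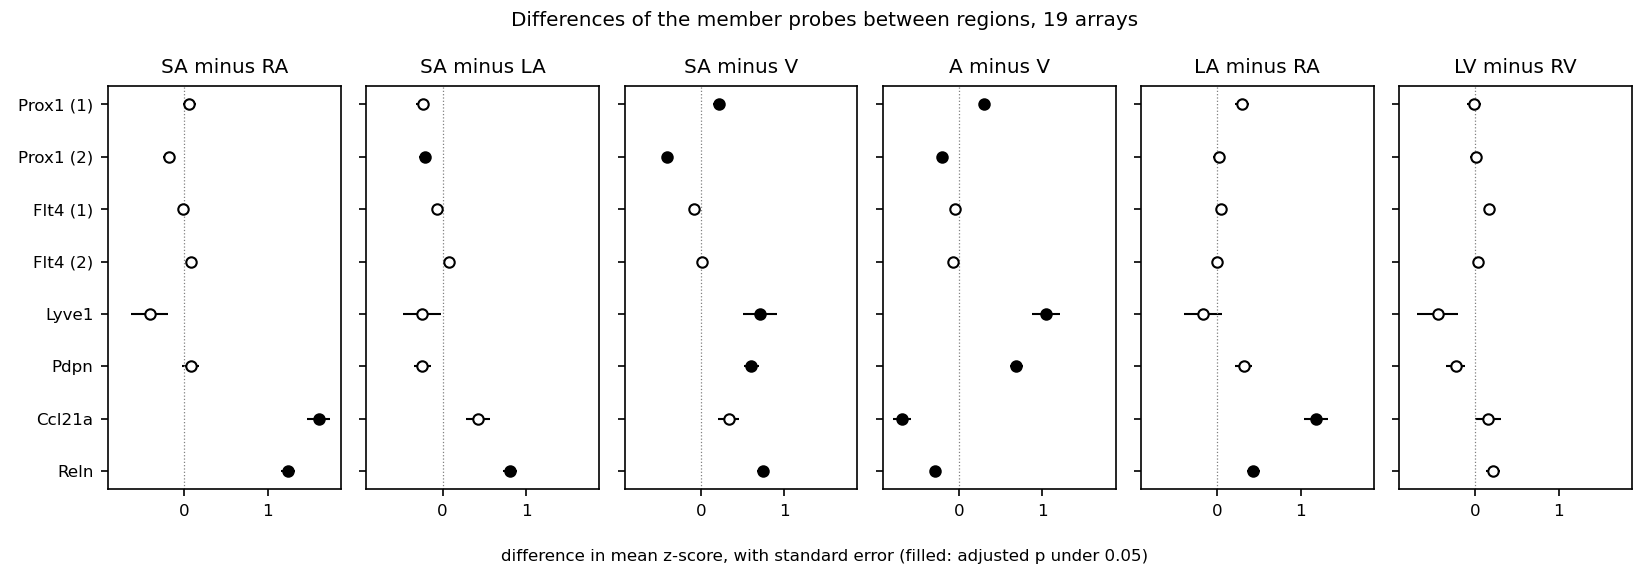
Differences in mean z-score (horizontal axis, with SE bars, some shorter than the point) of the 8 member probes (rows) in the 6 comparisons (panels), from 19 arrays; V is the mean of LV and RV and A the mean of LA and RA. Filled points have limma adjusted p under 0.05: Ccl21a and Reln carry the calls in SA minus RA and LA minus RA, and Lyve1 and Pdpn have the highest positive values in A minus V.

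Growth factors, receptors and regulators that act with these genes were read from a list of 33, of which 29 had a probe and 13 were below 0 in all 19 arrays. In SA against RA 3 were higher and 5 lower, where 4.45% and 4.9% of all probes were called in these directions. Vegfd, a ligand of Flt4, read 0.52, 0.22, 0.11 and 0.36 in SA, against -0.21, -0.09, -0.18 and -0.13 in RA, a difference of 0.46 ± 0.07 (limma adjusted p = 0.000328). Adm (adrenomedullin, a peptide needed for lymphatic growth in mice) read 0.46, -0.01, -0.02 and 0.28 in SA, against 1.28, 0.84, 0.93 and 1.03 in RA, and fell by 0.84 ± 0.10. SA and RA arrays did not overlap in either gene, as in 12.9% of all probes. The angiopoietin Angpt1 (-0.82 ± 0.12) and Nr2f2 (-0.38 ± 0.07), a nuclear receptor that partners Prox1, were also lower in SA, and Ackr3, a scavenging receptor that binds adrenomedullin, was higher at a difference of 0.36 ± 0.06 with z-scores below 0 throughout.

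SA against LA gave 3 higher and 4 lower (5.06% and 5.16% of all probes), with Angpt1 at -1.09 ± 0.12, Nr2f2 at -0.47 ± 0.07, Adm at 0.44 ± 0.10 and Vegfd at 0.28 ± 0.07. Adm thus lay in SA above LA and below RA. SA against V gave 7 higher and 5 lower (14.3% and 16.5% of all probes). The leading ones were Sox18, a factor that switches on Prox1 in the embryo, at -0.49 ± 0.08, Cd44, a hyaluronan receptor related to Lyve1, at 0.43 ± 0.06, Vegfd at 0.42 ± 0.07 and Angpt2, an angiopoietin, at 0.38 ± 0.09.

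A against V gave 10 higher and 6 lower (16.7% and 22.8% of all probes). Angpt1 was higher in A by 1.22 ± 0.09, Nr2f2 by 0.80 ± 0.05, Adm by 0.54 ± 0.07 and Cd44 by 0.52 ± 0.05. For Adm this averages a high RA with an LA that was not raised. It read -0.41 to -0.11 in LA, against -0.32 to -0.19 in LV without LV replicate 4 and -0.11 to 0.04 in RV. Foxc2, a factor of lymphatic valves, was higher by 0.42 ± 0.07, and Ramp2, part of the adrenomedullin receptor, by 0.46 ± 0.07. The lower ones included Sox18 (-0.50 ± 0.07), Vldlr (-0.41 ± 0.06), a receptor for Reln, and Vegfc (-0.23 ± 0.07), the main ligand of Flt4; Foxc2, Ramp2, Sox18, Vldlr and Vegfc here, and Ackr3 above, were named for their roles after their values were seen.

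Fewer of these partners were called between the left and right sides than in the other comparisons. LA against RA gave 1 higher, Has2 (a hyaluronan synthase, 0.20 ± 0.05, with z-scores below 0 in all 19 arrays), and 1 lower, Adm at -1.29 ± 0.10, where 0.83% and 1.09% of all probes were called. LV against RV gave 1 higher, Ccr7, the receptor for Ccl21a, at 0.19 ± 0.05 with all z-scores below 0, and 1 lower, Angpt1 at -0.63 ± 0.13 (0.609% and 0.713% of all probes). Over the 29 genes the median difference lay between -0.045 and 0.065 in the 6 comparisons, against -0.038 to 0.017 over all probes. With all 20 arrays the counts of higher and lower partners were 2 and 3 in SA against RA, 0 and 2 in SA against LA, 5 and 0 in SA against V, 5 and 1 in A against V, 0 and 1 in LA against RA, and 0 and 0 in LV against RV.

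**Figure D4:**
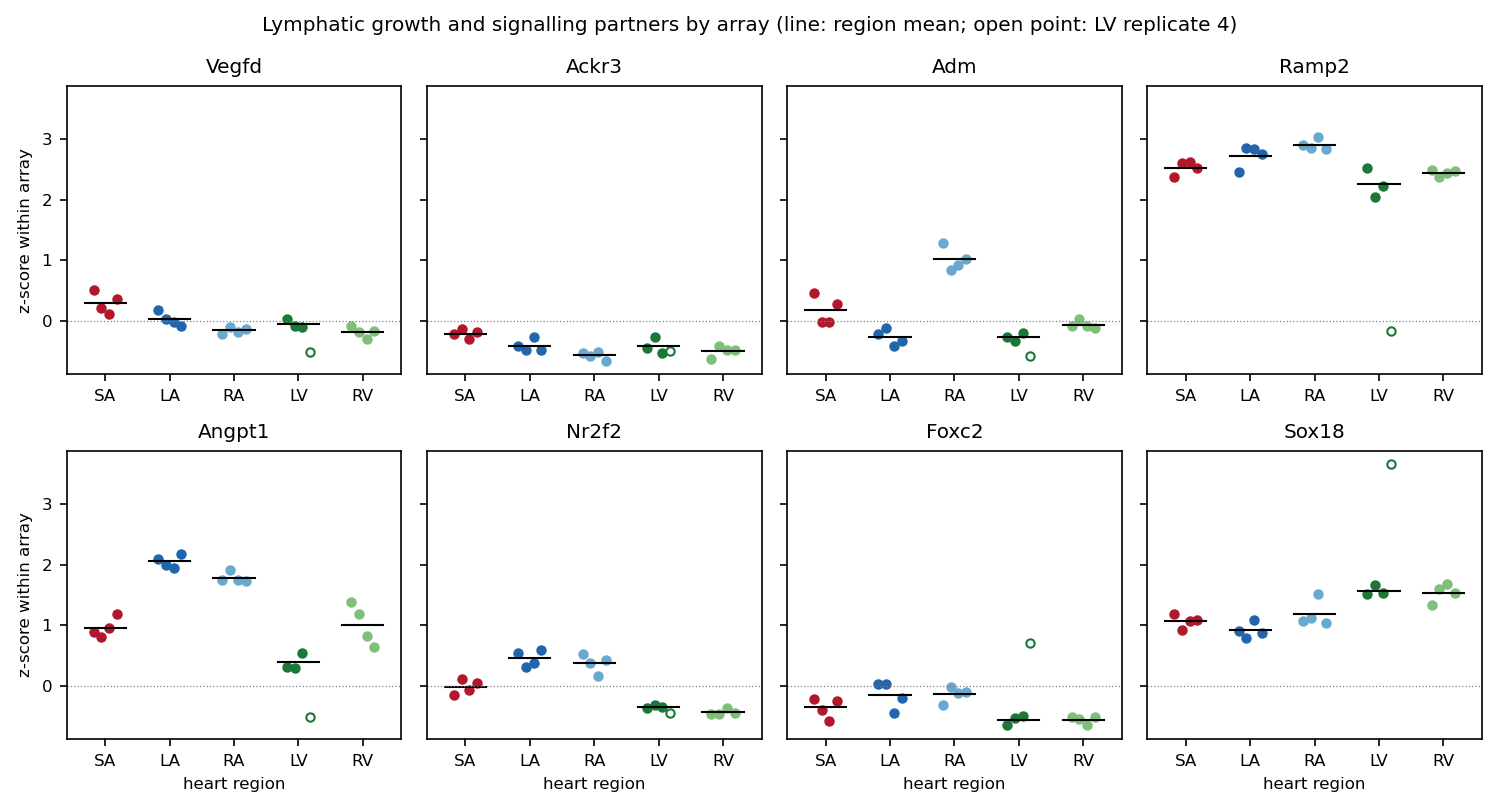
z-scores within array (vertical axis) of 8 genes that act with the lymphatic genes, in SA, LA, RA, LV and RV (horizontal axis). Points are arrays, lines are region means and the open point is LV replicate 4; Adm is highest in RA, and Angpt1 and Nr2f2 are higher in LA and RA than in SA.

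Marker lists of other cell types moved between the same regions. In SA, 5 of 7 measured adipocyte markers were higher than in RA and 5 of 7 were higher than in LA. Of all probes, 4.45% and 5.06% were called higher in these comparisons. The list's mean z-score per array ran from 1.003 to 1.31 in SA, against at most 0.304 in any LA, RA, LV or RV array except LV replicate 4 (0.909). Both counts were also 5 with all 20 arrays, where 1.46% and 1.44% of all probes were called in either direction. Adipoq, the adipocyte hormone adiponectin, read 1.79 to 2.31 in SA and -0.52 to 0.05 in RA, and had r = 0.797 with Reln and 0.435 with Ccl21a over the 19 arrays. Neuron markers were higher in SA than in RA in 2 of 7 and than in LA in 6 of 7, with list means of -0.363 to 0.29 in SA, -0.499 to -0.196 in RA and -0.683 to -0.651 in LA, and Th was below 0 in all 19 arrays. With all 20 arrays these counts were 0 and 3. Their part in the Reln result was not tested.

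Markers of lymphoid tissue, where Ccl21 is also made, moved in both directions between SA and RA. Of the 9 measured, 1 was higher in SA than in RA and 1 was lower (4.45% and 4.9% of all probes). SA exceeded LA in 4 (5.06% of all probes) and V in 4 (14.3%). Cd79a, a part of the B cell receptor, read 0.05, -0.15, -0.62 and -0.71 in SA, against -0.85 to -0.72 in RA (difference 0.42, limma adjusted p = 0.0216). Its partner Cd79b read 0.94, 0.72, -0.35 and -0.29 in SA, against -0.39 to -0.29 in RA (0.605, 0.069), so SA replicates 1 and 2 were the high arrays for both genes. Ccl19, the other Ccr7 ligand, was lower in SA than in RA (-0.31, 0.0143), and the B cell chemokine Cxcl13 had means of 0.58 in SA, -0.46 in LA and 1.53 in RA. Without SA replicate 1 the SA against RA counts were 0 higher and 2 lower, without SA replicate 2 they were 0 and 1, and with all 20 arrays 0 and 0. The SA against LA count fell to 1 without SA replicate 1, and to 0 without SA replicate 2 or with all 20 arrays. Ms4a1, Cd3e, Cd3g and Cr2, markers of B and T cells and follicular cells, were below 0 in all 19 arrays. List means ran from -0.428 to 0.157 in SA and from -0.229 to -0.136 in RA, and their part in the Ccl21a result was not tested. Of the 11 measured blood vessel endothelium markers 1 was higher in SA than in RA and 4 were lower, with list means of 1.105 to 1.187 in SA and 1.282 to 1.424 in RA, and with all 20 arrays these counts were 0 and 0. Kdr, Tek and Tie1 stand on both this list and the list of partners, and Kdr and Fabp4 were below 0 in all 19 arrays.

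Beside the atrial Lyve1 and Pdpn, 8 of 9 measured macrophage markers, 8 of 8 mesothelium markers and 7 of 8 fibroblast markers were higher in A than in V, where 16.7% of all probes were called higher, and none of these was lower. These counts were 6, 5 and 4 with all 20 arrays, where 9.64% of all probes were called in either direction. List means ran from 0.91 to 1.386 in the atria and from 0.377 to 0.746 in the ventricles for macrophages, from 0.35 to 1.049 and from -0.355 to 0.125 for mesothelium, and from 1.4 to 1.87 and from 0.458 to 1.334 for fibroblasts. The lowest fibroblast value was that of LV replicate 3, where the proteoglycan Dcn read -1.09 against 3.41 to 4.01 in the other 18 of the 19 arrays, and the next lowest ventricular value was 1.079. These lists moved together with Lyve1 and Pdpn between the same regions, and their part in those differences was not tested. Lung alveolar markers, another source of Pdpn, were mostly near background, with 6 of 8 below 0 in all 19 arrays. In the SA against RA and SA against LA comparisons Scgb1a1, a secretory protein of the airways, was the 1 lung gene called. It read -0.49, 3.97, 0.93 and 0.72 in SA, against -0.85 to -0.63 in RA, and Sftpd read 1.18 in SA replicate 2 and below 0 in all other arrays. The mean of Scgb1a1 in SA was 1.28, and 0.387 without SA replicate 2, when both calls held (limma adjusted p = 0.00171 against RA and 0.00125 against LA). Both calls were lost with all 20 arrays (0.136 and 0.124) and with trended robust moderation (0.0603 and 0.0506). Dcn and Sftpd were named after their values were seen.

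**Figure D5:**
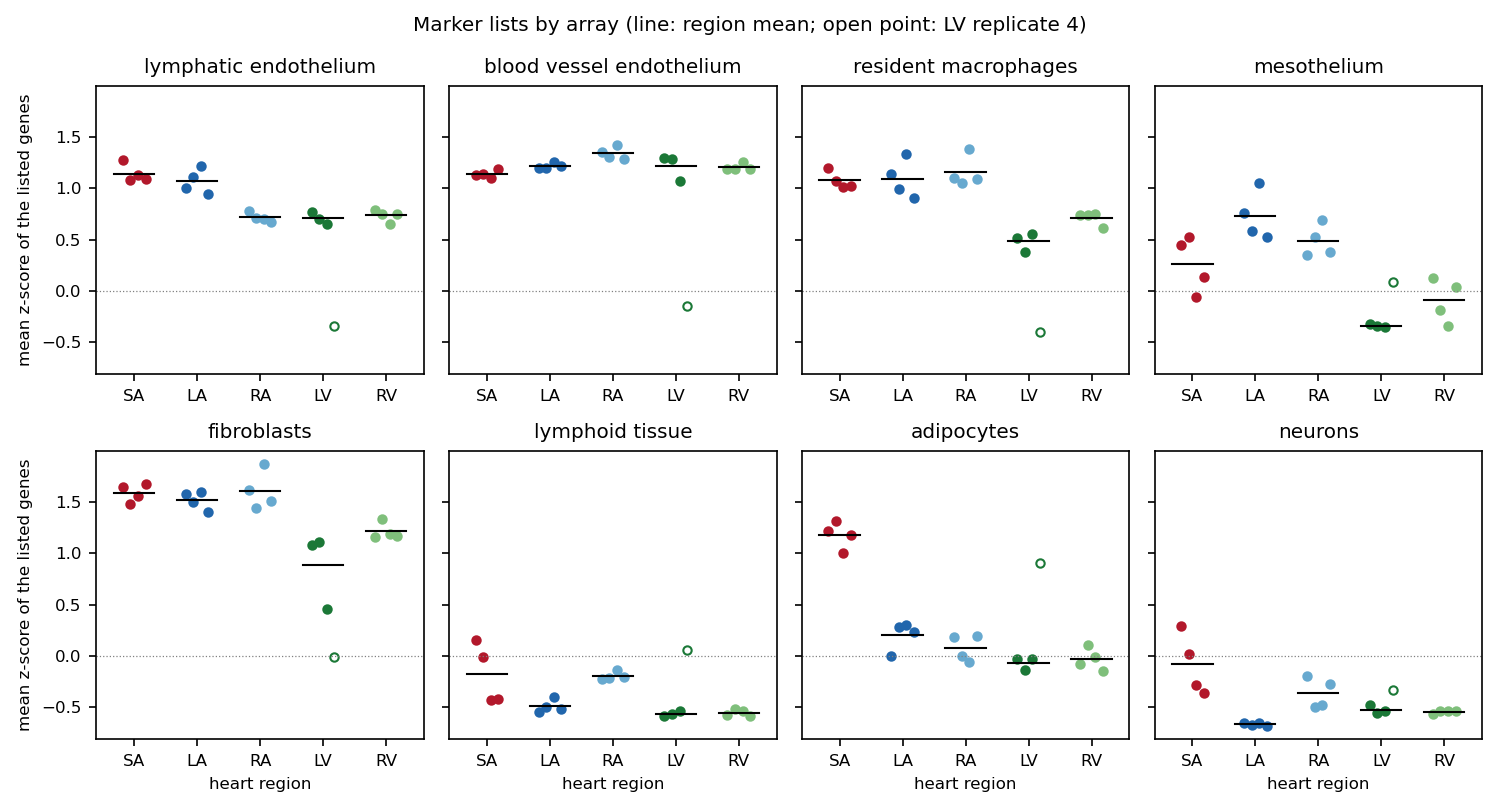
Mean z-score of the listed genes per array (vertical axis) for 8 marker lists in SA, LA, RA, LV and RV (horizontal axis). Points are arrays, lines are region means and the open point is LV replicate 4; adipocyte markers are highest in SA, and macrophage, mesothelium and fibroblast markers are lower in LV and RV than in LA and RA.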

How the data were processed

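The authors read Illumina MouseRef-8 beadchips of total RNA with BeadStudio and GenomeStudio 2011.1 and deposited 1 table of z-scores per array (a score with mean 0 and SD 1, 2 decimals). The study's methods describe a log2 transform and aligned array medians, without saying whether the deposited scores were made from them, and background correction is not given in the sources used here. Gene names came from the platform annotation (23978 probes with 1 gene, 1719 without, no gene coordinates used).

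Region means were fitted to the z-scores as deposited with limma 3.58.1 in R 4.3.3, 1 mean per region, no filter on low values, two-sided tests, Benjamini-Hochberg adjustment over all 23978 probes and a threshold of 0.05. The script was tested on simulated data. LV replicate 4 was left out because it did not correlate with any other array, knowing from earlier results that this gives more calls. The study's methods used only some of the LV arrays without naming them. Members, marker lists and partners were chosen with earlier results of these data known. The tests of single region pairs, the motifs and the promoters shown were settled after values and sequences had been seen. Named genes were all members, up to 4 called genes per list and comparison by size of difference (1 probe per gene, that with the highest mean), and the 3 genes with the highest Pearson r to each called member. Alternatives were all 20 arrays, 18 arrays, each array left out, replicate blocks, 2 other scalings, a filter, 1 probe per gene and trended robust moderation, and, for marker lists, SA replicate 1 or 2 left out, which was added after seeing the data. Arrays have no depth, and their number limits the precision.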

Additional observations from a re-analysis of the deposited data

Results flagged for a closer look

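Over the 8 member probes and 5 regions, 40 groups of 4 arrays were tested for a sample far from the others, a test that flags about 1 in 20 groups by chance, and 7 groups held one. LV replicate 4 was the far array in 5 of the 7. It read -0.46 for Ccl21a (the other LV arrays 1.32 to 1.55), 0.06 for Pdpn (0.94 to 1.04), -0.37 at the first Prox1 probe (1.16 to 1.40), -0.52 for Reln (0.41 to 0.52) and 0.79 at the second Flt4 probe (-0.67 to -0.61).

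In LA, Pdpn was 2.34 in replicate 3, above the other arrays at 1.83 to 1.86. In RA, the first Flt4 probe was -0.37 in replicate 4, against -0.49 to -0.48 in the other arrays.

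The left-right difference of Ccl21a differed between atria and ventricles, by 1.03 z-score units (limma interaction, adjusted p = 0.00991, n = 4 arrays per region and 3 in LV), with every LA array above every RA array and LV and RV arrays overlapping. LA and RA arrays did not overlap in 5.91% of all probes.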

How the results depend on the processing

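Counts of called member probes moved by more than 1.5 times in these settings. With all 20 arrays SA against LA called 1 instead of 2, A against V 2 instead of 6, LA against RA 0 instead of 2, and the left-right interaction 0 instead of 1. SA against LA also called 1 with the replicate block and with 1 probe per gene. The latter setting leaves out the second Prox1 probe, so that this fall was set by construction. The interaction called 2 with the filter on low values and with trended robust moderation. Leaving out 1 array gave 1 to 3 in SA against LA, 3 to 6 in SA against V (3 without SA replicate 1) and 1 to 2 in the interaction (2 without RA replicate 3 or RV replicate 3, both adding Pdpn). With all 20 arrays, differences between regions other than LV kept their size, while the spread shared over the regions took in LV replicate 4. The cause of the other changes was not tested. Counts for SA against RA, LV against RV and the F test stayed within 1.5 times in all 28 settings. Of 1533 differences of single member probes over these settings, 1476 kept their side of the threshold, 31 lost the call, 26 gained it and 0 reversed while called, and 27 that were uncalled in both fits changed sign.

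Replicate numbers recur in all regions, and the titles number LA like RA and LV like RV, but nothing says that a number marks a shared animal. Same-numbered arrays deviated together in 6 of 7 pairs, with r over 0.1 in 5, and since not every pair reached this they were not treated as paired: the correlations were -0.258, 0.127, 0.317 and 0.302 for LA and RA and 0.175, 0.177 and 0.034 for LV and RV. Differently numbered arrays had correlations of -0.325 to 0.24 for LA and RA and of -0.145 to 0.03 for LV and RV. This rule cannot show that the animals were separate, and shared animals remain possible. The replicate block was built on replicate numbers over all regions, which differ from the title numbers, and changed only the SA against LA count, to 1. The random block was built on the title numbers and had a correlation of 0.00501 over all probes. The number of arrays (4 per region, 3 in LV) and an unknown scale before the z-scores limit what can be seen, and probes near the array median, both Flt4 probes among them, have no detection call here.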
